A study of Caenorhabditis elegans with 2 samples.

Results

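The genes described here are the 276 nuclear genes annotated as tRNA on chromosome X of Caenorhabditis elegans, out of 612 on all nuclear chromosomes. They were taken by biotype and chromosome from the Ensembl annotation of WBcel235, with no use of measured values. Each gene was scored by the highest signal among thresholded peaks whose summit lay within 250 bp of it. The peaks came from chromatin immunoprecipitation and sequencing of 1 group of 2 biological replicates. These were whole L2 larvae of strain OP339, with both sexes pooled, in which the unc-119(ed3) allele on III was combined with the integrated transgene wgIs339 encoding eGFP-nhr-129. NHR-129 is a nuclear hormone receptor. The sources used here do not give the promoter that drives the fusion. The antibody is recorded under the name nhr-129. No untagged strain, other stage or treatment was in the group, so recovery that does not depend on NHR-129 cannot be told apart from recovery that does. The labels do not say how the cultures of the replicates were grown. Signal is a score from the authors' peak caller. Its scale and the read depth are unknown, so signals of different lists may not be on the same scale. X and autosomal genes are compared only within a list, and replicate values are set side by side as deposited.

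Transfer RNAs carry amino acids to the ribosome and pair with codons through the 3 bases of the anticodon. Their genes are transcribed by RNA polymerase III. Most of the promoter lies inside the gene, as an A box near the start and a B box near the end, which are bound by the factor TFIIIC. TFIIIC places TFIIIB just upstream of the start, and transcription stops at a run of T just after the gene. In this species the X chromosome is rich in tRNA genes: X held 15.6 per Mb and the autosomes held 4.07 per Mb.

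The highest-scoring genes and a set of identical copies with and without peaks show these elements. Each sequence below runs along the gene's strand from 40 bases upstream to 25 bases downstream (WBcel235, chromosome X). Capitals mark the A box letters TNGNNNAG in the first 30 bases of the gene, the B box letters GTTCNANNC in its last 35 bases, and the first run of at least 4 T after it. The first 4 are the highest-scoring genes that have no identical copy on the first of the autosomes.
C33G3.t2, tRNA-Lys, chrX:14063921-14064058, minus strand: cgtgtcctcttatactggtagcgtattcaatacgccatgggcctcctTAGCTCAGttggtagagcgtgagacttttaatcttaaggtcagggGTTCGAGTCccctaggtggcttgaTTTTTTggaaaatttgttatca
R04A9.t1, tRNA-Gln, chrX:410351-410487, plus strand: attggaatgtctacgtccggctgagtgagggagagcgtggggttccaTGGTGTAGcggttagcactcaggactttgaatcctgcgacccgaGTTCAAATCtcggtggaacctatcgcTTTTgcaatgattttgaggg
R11.t1, tRNA-Tyr, chrX:16209744-16209892, minus strand: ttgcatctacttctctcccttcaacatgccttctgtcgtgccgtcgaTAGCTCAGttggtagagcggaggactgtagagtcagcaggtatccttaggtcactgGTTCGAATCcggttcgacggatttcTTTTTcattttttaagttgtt
C04A11.t1, tRNA-Leu, chrX:13665515-13665698, plus strand: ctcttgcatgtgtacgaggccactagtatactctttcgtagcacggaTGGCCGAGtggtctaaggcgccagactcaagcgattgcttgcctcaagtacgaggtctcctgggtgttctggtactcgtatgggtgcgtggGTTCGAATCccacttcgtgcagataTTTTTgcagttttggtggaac

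The next 4 are copies of 1 tRNA-Pro gene, identical over all 72 bases of the gene and different in their flanks. The pair at F46G11 shared a peak, and the pair at C48C5 had none.
F46G11.t2, chrX:5801186-5801322, minus strand, peak: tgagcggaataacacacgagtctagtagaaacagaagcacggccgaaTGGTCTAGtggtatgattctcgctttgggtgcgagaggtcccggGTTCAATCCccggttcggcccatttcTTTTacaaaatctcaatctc
F46G11.t1, chrX:5801432-5801568, plus strand, peak: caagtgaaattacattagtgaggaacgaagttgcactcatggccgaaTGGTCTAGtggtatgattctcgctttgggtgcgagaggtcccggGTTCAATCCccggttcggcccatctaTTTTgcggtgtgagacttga
C48C5.t3, chrX:8969463-8969599, minus strand, no peak: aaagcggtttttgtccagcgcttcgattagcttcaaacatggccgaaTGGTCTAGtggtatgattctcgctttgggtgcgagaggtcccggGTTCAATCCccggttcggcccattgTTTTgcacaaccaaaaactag
C48C5.t1, chrX:8969698-8969834, plus strand, no peak: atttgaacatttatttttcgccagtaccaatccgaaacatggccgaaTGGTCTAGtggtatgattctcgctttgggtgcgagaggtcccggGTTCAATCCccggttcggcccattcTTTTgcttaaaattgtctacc

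A thresholded peak lay at 122 of the 276 genes, or 44.2%. The share among all nuclear tRNA genes was 43.5%, and among the 336 autosomal ones it was 42.9%. X and autosomal tRNA genes were therefore close in how many were marked. By contrast, a summit lay within 250 bp of the start of 10.4% of all coding genes and also of 10.4% of those on X. A gene of the median length of 72 bp placed at each position of X in turn would have had a summit within 250 bp at 4.44% of positions. RefSeq marks a separate set of 209 nuclear loci as tRNA pseudogenes, which resemble tRNA genes but are not thought to give a working tRNA, and 1.44% of these had a peak. On X none of the 29 pseudogenes did. If 0 is taken as up to 3 counts, a rough guide that treats loci as independent, the share could be up to 10.3%. None of the pseudogenes overlapped an annotated tRNA gene.

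The 154 genes without a thresholded peak were not all without calls. The relaxed pooled list, which holds 30000 calls, had a call within 250 bp of 66 of them, with a median signal of 35.4 and a highest signal of 62.6. In 47 both replicates' relaxed lists had a call. For 69 genes no list had one. Over all members 188 of 276, or 68.1%, had a pooled call, against 69.3% of all nuclear tRNA genes.

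Because tRNA genes often lie side by side, the 122 genes shared 108 distinct peaks, which made up 7.70% of the 1402 thresholded peaks on X. In 14 cases 1 peak served a pair of genes. Of these pairs 7 were divergent, 3 were convergent and 4 lay on the same strand, and no peak served more than a pair. The strongest shared peak was that of the divergent F46G11 pair (signal 455.7). The next were M02F4.t2 and M02F4.t1, for tRNA-Glu and tRNA-Gly (signal 397.8), F15G9.t1 and F15G9.t2, both for tRNA-Ala inside an intron of him-4 (371.02), and C53C7.t2 and C53C7.t1, both for tRNA-Ser (358.2).

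Signals at X tRNA genes reached higher than at autosomal ones. On X they ran from 63.7 to 860, with a median of 168 and quartiles of 96.5 and 260.01. At autosomal tRNA genes they ran from 64.97 to 463, with a median of 146 and quartiles of 111 and 200.5. The signal exceeded 300, a cut chosen after the values were seen, at 26 of 122 genes on X, or 21.3%. On the autosomes it did so at 10 of 144, or 6.94%. Genes that share a peak are each counted here. Of the 1402 thresholded peaks on X, 14.2% had a signal over 300. When the thresholded list was cut by signal into 5 equal classes, the strongest class held 32 of the 108 peaks on X, or 29.6%, and 22 of the 137 on the autosomes, or 16.1%. The lower quartile was lower on X than on the autosomes, so the X genes were the more widely spread. Neither difference was tested. The order of the medians turned when all pooled relaxed calls were used, at 94.7 on X and 102 on the autosomes. With the strongest 6626 calls of replicate 2 alone the medians were 71.6 and 70.2, and with those of replicate 1 alone 89.2 and 81.3. The median over all thresholded peaks was 122, and over those on X it was 125.

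**Figure D1:**
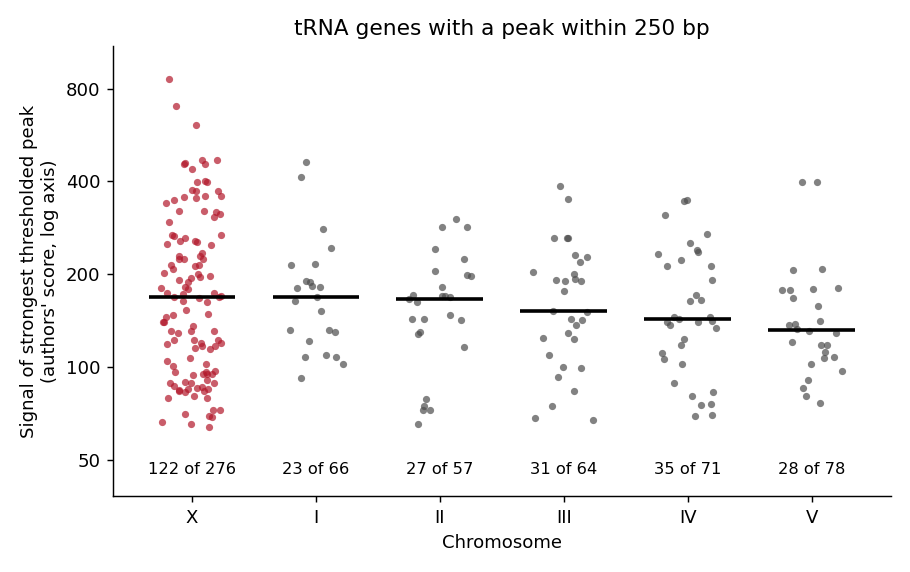
Signal of the strongest thresholded peak within 250 bp of each tRNA gene that has one, by chromosome, on a log axis. Dots are genes, lines are medians, and the counts give genes with a peak of all tRNA genes. X reaches 860 while the highest autosomal gene is at 463, and the medians of X and I are alike at 168 and 169.

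The highest score belonged to C33G3.t2, for tRNA-Lys with the anticodon TTT (WBGene00014275, X 14063946 to 14064018). Its peak had a signal of 860, rank 65 of 6626, with 510 in replicate 1 and 375 in replicate 2, and its summit lay 62 bp upstream of the first base. The gene lies between coding genes, 3966 bp from the nearest coding start, that of lgc-21. Second was R04A9.t1, for tRNA-Gln, in an intron of ZK1193.2 on the opposite strand, with a pooled signal of 705 (339 in replicate 1 and 365 in replicate 2). That summit lay 188 bp upstream. A weaker thresholded peak, of signal 176, had its summit inside the gene, 11 bp after the first base, so the score of this gene comes from a neighbouring peak. It was the only member with more than 1 thresholded summit in its window.

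Next was C28G1.t1, for tRNA-Glu, with a signal of 611 (325 in replicate 1 and 292 in replicate 2). It was the only member that overlaps an exon of a coding gene, and its summit also lay in the promoter regions of sec-15 and C28G1.2. R11.t1, for tRNA-Tyr, followed with a signal of 471 (269 in replicate 1 and 203 in replicate 2). C04A11.t1, a tRNA-Leu gene of 119 bp, had a signal of 469 (238 in replicate 1 and 232 in replicate 2). Its length is above the 72 to 84 bp of most members, and such length in a tRNA gene usually reflects an intron. F41D9.t3, for tRNA-Asn in an intron of sulp-3, had 459. K02A4.t1, for tRNA-Ser, had 440 and the only window among the top genes in which every run of 31 bases occurs once in the nuclear genome. R04D3.t2, for tRNA-Val, had 402.

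The 20 highest genes lay at 16 distinct peaks, read 13 of the 20 amino acids and had signals of at least 348. Besides those above and the F46G11, M02F4, F15G9 and C53C7 pairs, they were rte-1 (tRNA-Glu, 373), W03G11.t1 (tRNA-Lys, 355), C06G1.t1 (tRNA-His, 353) and T28B4.t1 (tRNA-Phe, 348). In both replicates all 20 ranked at or above 934 of 30000. Their summits lay upstream of the gene in 16 cases, and only C28G1.t1 and rte-1 had a summit that also fell in a coding promoter window.

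The 5 lowest scores were at C25F6.t4 (69.01), C39D10.t1 (68.6), C11G10.t1 (66.03), K05G3.t1 (65.1) and M163.t2 (63.7), just above the lowest signal of the list, 63.4. At the distance limit, C16B8.t3 and T06H11.t3 were just inside, 212 and 228 bp from their summits. Each shared its peak with a nearer neighbour. ZK154.t2, K01A12.t5 and H08J11.t2 were just outside, with the nearest summit 269, 261 and 267 bp away.

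Both replicates had a call at every one of the 108 peaks, and at 6593 of all 6626 thresholded peaks. The thresholded list is itself chosen for agreement between replicates. At the 108 peaks the replicate signals were ordered alike, with a Spearman rho of 0.91. It was 0.84 over 136 peaks at autosomal tRNA genes and 0.82 over the 6593 thresholded peaks. These are descriptions of selected peaks, which share their libraries. Replicate 1 was higher at 76 of 108 peaks, and the log2 ratio of replicate 1 to replicate 2 had a median of 0.20 (SD 0.38 over the 108 peaks). The median was 90.1 in replicate 1 and 77.7 in replicate 2. Over all thresholded peaks the median log2 ratio was 0.31. The scales of the replicate lists may differ, so these ratios describe the deposited values only. In 1 case, C18A11.t2 (tRNA-Arg, pooled signal 234), the overlapping replicate calls had higher deposited values than the pooled peak, at 783 and 579. Those calls had summits more than 100 bp from the pooled one, and the rho, the ratios and the 76 of 108 above include them. Calls at C18A11.t2 with a summit within 100 bp of the pooled one had 83.5 in replicate 1 and 172 in replicate 2. Taken singly, the 6626 strongest calls of replicate 1 marked 120 of the 276 genes and those of replicate 2 marked 124, with 112 genes marked by both, each of which also had a thresholded peak.

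The largest differences in rank were at weak peaks. C11G10.t1, for tRNA-Arg in an intron of unc-7, ranked 5206 in replicate 1 (signal 46.2) and 11355 in replicate 2 (18.6). C25F6.t4 ranked 4662 and 10405, and M163.t2 ranked 5733 and 10364, both for tRNA-Lys. The convergent tRNA-Val genes C16H3.t1 and C16H3.t2 went the other way, at 8899 in replicate 1 and 4546 in replicate 2. The median difference in rank was 406.

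**Figure D2:**
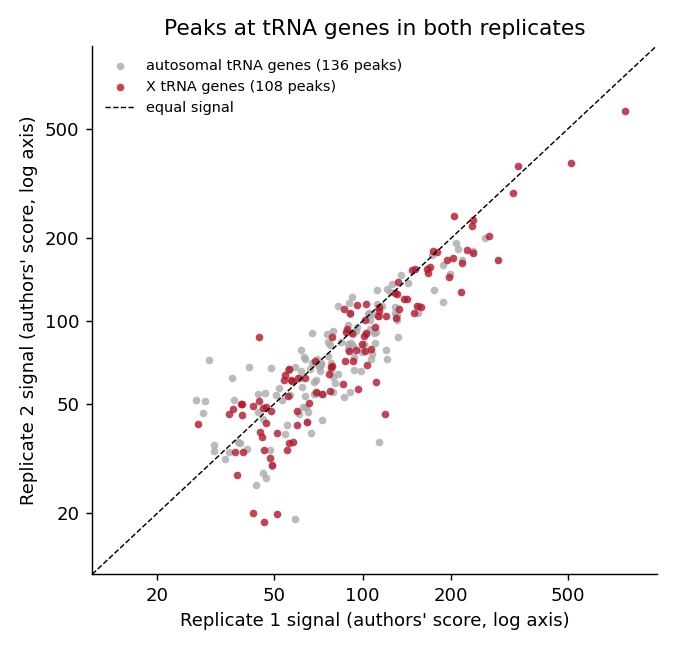
Signal in replicate 1 against replicate 2 at thresholded peaks near tRNA genes, both on log axes, with 1 dot for each distinct peak (108 on X, 136 on the autosomes) and a dashed line of equal signal. The X peaks run along the line, with 76 of 108 on the side of replicate 1. The farthest X point, at 783 and 579, is C18A11.t2, where overlapping calls with summits more than 100 bp away are plotted.

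Summits sat at the 5′ end of the genes. On X the median summit was 20 bp upstream of the first base, with quartiles of 40.5 bp upstream and 25.8 bp downstream of it. Of the 122 summits, 74 were upstream (60.7%), 38 were inside the gene (31.1%) and 10 were downstream (8.20%). At autosomal tRNA genes the median was 5 bp after the first base. There 47.2% were upstream and 46.5% were inside. The autosomal summits thus lay further into the gene, a difference that was not tested. In all, 110 of 122 X summits (90.2%) and 132 of 144 autosomal ones (91.7%) lay within 100 bp of the first base. Among the 94 X genes that did not share a peak, 58.5% of summits were upstream and the median was 18 bp upstream. Only 1 of those, at R04A9.t1, was over 100 bp outside the gene, against 9 of the 28 genes at shared peaks.

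The place of a summit is coarse in these files. At 76 of 108 peaks it was the centre of the peak interval, and 74 peaks had the commonest width, 370 bp. Much of the gene sequence itself is repeated. The median share of runs of 31 bases in the gene that occur once in the nuclear genome was 0%, and in the gene with 250 bp on each side it was 89.4% on X and 89.7% on the autosomes. How the authors treated reads with several placements is not given in the sources used here, and its part in the place of the summits was not tested.

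**Figure D3:**
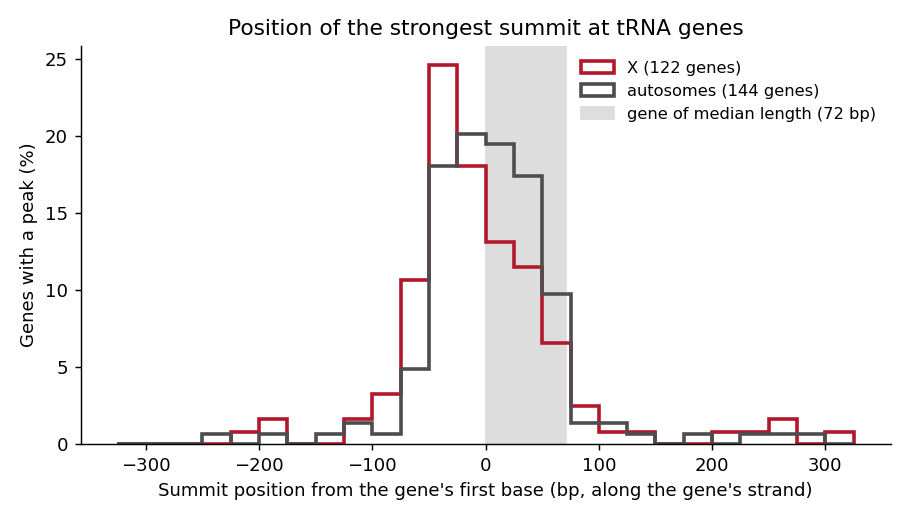
Position of the strongest summit from the first base of the tRNA gene, along the gene's strand, as a percentage of genes with a peak in bins of 25 bp. The X genes (122) are most frequent just upstream, with a median of -20 bp, and the autosomal genes (144) are centred on the start, with a median of 5 bp. The grey band is a gene of 72 bp.

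Genes for every amino acid were marked. RefSeq gave an amino acid for 273 of the 276 members, and the 3 others had no peak. Each of the 20 amino acids had a peak at 1 or more members. The share ran from 2 of 9 for tRNA-His (22.2%) and 4 of 15 for tRNA-Gln (26.7%) to 8 of 14 for tRNA-Val (57.1%) and 4 of 6 for tRNA-Phe (66.7%). The largest groups were tRNA-Arg, with 10 of 27, and tRNA-Glu, with 12 of 23. All 4 tRNA-Gly genes with the anticodon GCC had a peak, with a median signal of 166, as did 7 of the 16 with TCC. None of the 6 tRNA-Arg genes with TCG did.

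**Figure D4:**
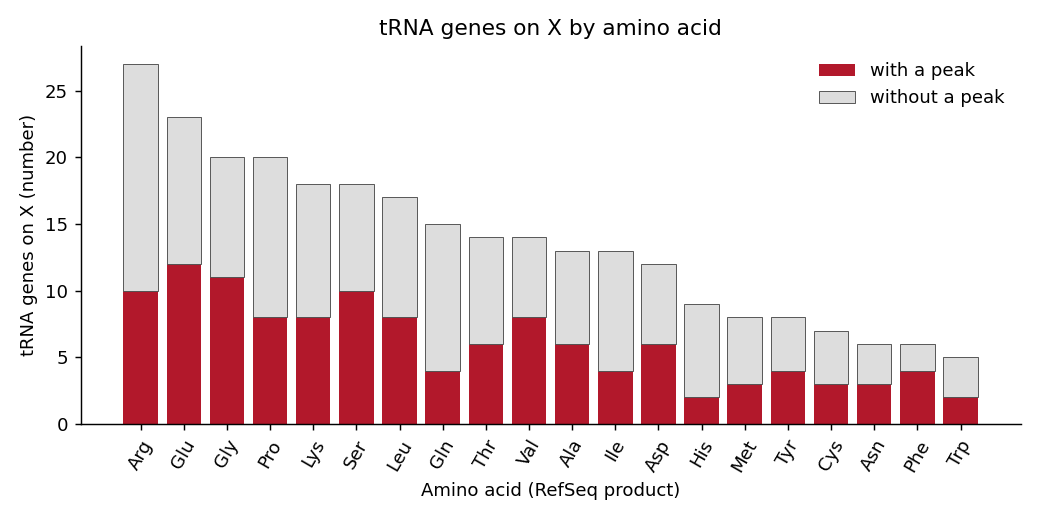
Number of tRNA genes on X for each amino acid, with (red) and without (grey) a thresholded peak within 250 bp. Every amino acid has marked and unmarked genes, from 10 of 27 for Arg to 2 of 5 for Trp.

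Within an amino acid, X and autosomes could differ. Genes for tRNA-Tyr had a peak at 4 of 8 members on X and at none of 11 on the autosomes. By the same rough guide of 3 counts, the autosomal share could be up to 27.3%. Of those 11, 7 had a call in the relaxed pooled list. For tRNA-Gly the counts were 11 of 20 on X and 8 of 35 on the autosomes. The order was the other way for tRNA-Gln, at 4 of 15 against 8 of 12, and for tRNA-His, at 2 of 9 against 6 of 11. With few genes for each amino acid, none of these differences was tested. The highest gene of each of the remaining amino acids was F15G9.t1 or F15G9.t2 for Ala, C14F11.t1 for Arg (250.5), F38G1.t2 for Asp (249), F42D1.t1 for Cys (88.9), C42D8.t1 for Ile (317), C02F12.t1 for Met (224), F46G11.t1 or F46G11.t2 for Pro and ZK563.t1 for Thr (312). For Trp it was sup-7 (168, with 78.4 in replicate 1 and 87.7 in replicate 2), one of several tRNA-Trp genes with known amber suppressor alleles in this species. Its identical copies on X, sup-21, sup-28 and sup-33, had no thresholded peak, though each had a call in the relaxed pooled list and in those of both replicates.

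Identical copies of a gene differed in whether they had a peak. The 276 members had 106 distinct sequences, and 203 members fell into 33 families of at least 2 identical genes on X. In 30 of the 33 families some copies had a peak and others did not. Every copy had one in 2 families, and no copy had one in 1. Where at least 2 copies had a peak, which held for 25 families, the highest signal was a median of 3.82 times the lowest, and at most 12.5 times. Copies without a thresholded peak are left out of these ratios. Some of the highest signals may not be the gene's own, as at R04A9.t1 and C28G1.t1, described above.

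The largest family was that of tRNA-Pro with the anticodon TGG, whose sequence is printed above. It held 13 genes on X, of which 5 had peaks with signals of 119 to 456, and 11 on the autosomes, of which 4 had peaks. At F46G11 its divergent pair, 189 bp apart, had a summit between the genes, 89 and 101 bp upstream of them. The pair at C48C5, also divergent and 178 bp apart, had no call in the pooled list or that of replicate 1. Its relaxed call in replicate 2 was not among the 6626 strongest there. The A box, the B box and the T run were present at all 4 genes. The next families were tRNA-Glu with CTC, with peaks at 5 of 12 and signals of 82.9 to 398, and tRNA-Gly with TCC, with peaks at 7 of 11 and signals of 96.3 to 398. The highest of both lay at the peak shared by M02F4.t2 and M02F4.t1.

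**Figure D5:**
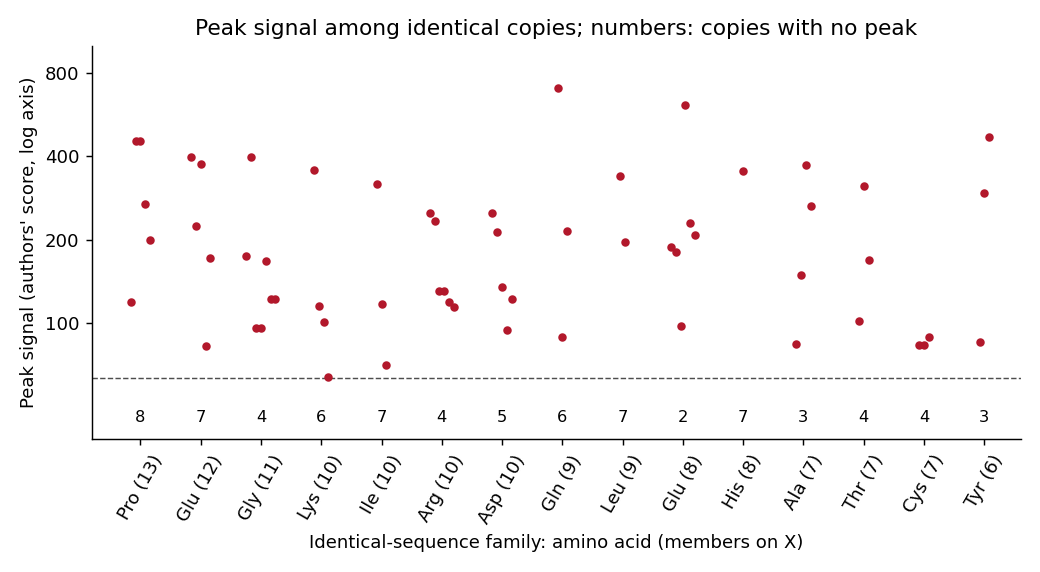
Peak signal on a log axis for each copy with a thresholded peak in the 15 largest families of identical tRNA genes on X, with the number of members in brackets and the number of copies without a peak under the dashed line, which is the lowest thresholded signal (63.4). In every family shown copies with and without a peak occur, from 5 and 8 for Pro to 3 and 3 for Tyr.

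Genes with an identical copy somewhere in the nuclear genome were marked at 107 of 219, or 48.9%, and those with none at 15 of 57, or 26.3%. The autosomal shares were alike, at 119 of 250 (47.6%) and 25 of 86 (29.1%). Beside this, the B box letters were found in 98.6% of X genes with copies and 91.2% of those without, and the T run in 100% and 94.7%. The median share of unique runs in the window was 89.3% and 91.9%. The part of these in the difference was not tested.

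On X the promoter letters themselves were about as frequent with a peak as without. The A box letters of the printed sequences were in 104 of 122 genes with a peak (85.2%) and in 83.8% of the 154 without, and the B box letters were in 118 (96.7%) and 150 (97.4%). Both sets of letters were found in 227 members, of which 44.1% had a peak, and among the 49 others 44.9% did. The autosomal tRNA genes differed: both sets were in 85.4% of those with a peak and 73.4% of those without. Of the 72 autosomal genes lacking a set, 21 had a peak. Identical copies share these letters, so a missing set goes with the gene family. The largest family on X without the A box letters was tRNA-Gly with TCC. It had peaks at 7 of 11 genes on X and at 5 of 18 on the autosomes. The difference between X and autosomes, and the part of families in it, was not tested. In the first 72 bases of coding genes the same A box letters occurred in 6.12% and the B box letters in 0.656%. These letters were chosen after the data were seen. Stricter letters, TNGCNNAG and GTTCGANNC, were found in 113 and 200 members with similar shares with and without a peak, at 41.8% against 40.3% for the A box and 75.4% against 70.1% for the B box. In the first 72 bases of coding genes they occurred in 3.80% and 0.235%. Boxes were searched on the gene's own strand, the stricter letters over the whole gene, and each stricter set is a special case of the looser one.

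A run of TTTT within 25 bp after the gene was present at 122 of 122 genes with a peak and 151 of 154 without, against 45.4% of coding genes over the 25 bp after their end. TATAA within 50 bp upstream was found at 7 genes with a peak and 14 without (7.61% of all members, 3.57% of autosomal tRNA genes and 13.5% of coding genes). The letters GCGCAGGG, the core of a motif bound by the dosage compensation complex of X, were searched on both strands within 250 bp. They occurred at 2 members, F38G1.t2 (signal 249) and C18A11.t2 (234), and at no autosomal tRNA gene. Among coding gene starts of all nuclear chromosomes they occurred at 0.170%. The share at coding starts on X alone is not given here, so the members cannot be set against X as a whole.

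On X the share marked differed with location on the chromosome and with the spacing of the genes. In 3 equal spans of X, a peak was found at 31 of 51 genes of the left span (60.8%, median signal 214), 43 of 107 in the middle (40.2%, median 128) and 48 of 118 at the right (40.7%, median 166). The density of all peaks in these spans is not given here, so the spans cannot be set against X as a whole. Genes with another tRNA gene within 500 bp had a peak at 37 of 108 (34.3%) and the others at 85 of 168 (50.6%). The autosomes were alike in this: 17 of 62 genes with such a neighbour had a peak, against 42.9% of all 336. Between coding genes lay 180 members, of which 42.8% had a peak. In introns lay 95, of which 46.3% had one, with 20 of 50 on the strand of the host gene and 24 of 45 on the other. The median distance to the nearest coding start was 1931 bp with a peak and 2116 bp without. The G and C content of the gene with 250 bp on each side had a median of 38.1% and 36.2%. None of these differences was tested.

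Some of the peaks could be shared with a coding gene's promoter, and how many depends on the window. At 17 of 122 genes (13.9%) the summit also lay in a coding promoter window, which runs from 1000 bp before a coding start to 100 bp after it, against 29 of 144 on the autosomes (20.1%). With 500 bp before the start the count on X was 8, and with 2000 bp it was 42. The strongest were C28G1.t1, rte-1, C04E7.t1 with sor-3 (339), ZK678.t1 with the receptor gene nhr-255 (261) and F31B12.t1 (229). At these, which gene the peak belongs to cannot be told.

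Of the genes for RNA polymerase III, its factors and the maturation of tRNAs, 3 of 14 had a promoter peak, against 18.2% of all coding genes. They were rpc-1, for the largest subunit of the polymerase (signal 271), mafr-1, for the repressor of RNA polymerase III known as Maf1 (127), and rpac-19, for a subunit shared with RNA polymerase I (97.03). No promoter peak was found at the other listed polymerase subunit genes, rpc-2, rpc-11 and rpac-40. The same held at brf-1 and tbp-1, for parts of TFIIIB, and at tftc-1, tftc-3 and tftc-5, for subunits of TFIIIC. It also held at rtcb-1, for the ligase that joins tRNA exons, and at hoe-1 and snpc-4.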

How the data were processed

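From read-me texts deposited for each sample, the authors called a relaxed list of peaks against a control from each replicate and from the pooled alignments, and kept a list thresholded on the irreproducible discovery rate, in ce11. No aligner, caller, version or threshold is stated in the labels or file descriptions. The signal of each peak is the deposited value of the authors' caller, and the deposited offset of the summit gives its place. Fragments were 150 to 350 bp, per the labels. The ce10 lists were not used. The 22 mitochondrial tRNA genes were left out.

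Peaks were matched to Ensembl release 115 genes, whose assembly is that of ce11. Amino acids and sequence came from RefSeq (WBcel235), and anticodons were read from the gene's stem and loop, and kept where they decode to RefSeq's amino acid, for 257 members. Replicate values are the strongest call overlapping the peak by at least 1 bp. With 1 group nothing was tested across conditions, and lists are described by counts beside those of all tRNA genes. As a check of the code only, summits planted at known distances from spaced tRNA genes were assigned by the same rule. That check does not bear on genes that share a peak. Genes named are the 20 highest, the 5 lowest, the 5 with the largest difference in rank, the highest per amino acid, and members of the largest families and shared peaks, with some others chosen after their values were seen. The rule for the members used no measured values, but the members and lists were chosen with earlier results of these data known. Python 3.11.15, numpy 2.4.6 and pandas 2.3.3 were used.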

Additional observations from a re-analysis of the deposited data

How the results depend on the processing

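Leaving out the 17 genes with summits in coding promoters took the count of 122 genes to 105 by construction. The count stayed within 1.5 times of 122 under windows of 100 and 500 bp and under overlap of the peak with the gene. It was 79 with the strongest 3313 peaks (median signal 224), 188 with all pooled relaxed calls (median 94.7; autosomal count 236) and 58 of 106 with identical sequences counted once (median 253; 40 upstream; autosomal count 68 of 137). In that last setting each sequence stands by its highest copy, which by itself raises the share and the median. Without replicate 1 or replicate 2 the count was 124 or 120, the autosomal count 155 or 134, the genes with the summit upstream 73 or 82, the distinct peaks 110 or 108, and the median 71.6 or 89.2, on the replicate lists' own scale. The share of summits upstream was higher on X than on the autosomes under all 9 of these settings. The median signal was higher on X except with all pooled relaxed calls, where it was 94.7 against 102. By construction these settings change the calls or genes counted, and no other cause was tested. Summits in coding promoters numbered 8 with 500 bp and 42 with 2000 bp upstream. Looser letters found the A box in 233 members. No paired analysis was possible because there was 1 group. Depth is unknown, so weak calls at unmarked genes could not be weighed.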
